A study of Homo sapiens with 12 samples.

Results

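USP17L15, USP17L12 and USP17L9P belong to the USP17-like (USP17L) family of deubiquitinase genes, which lie in tandem repeats. They were followed over 12 microarrays of Hs695T, a human melanoma cell line, as the rows of the deposited table that carry 1 of these 3 symbols. These are 4 of 29592 rows: 1 for USP17L15 (probe set 16965004), 1 for USP17L12 (16965002), and for USP17L9P a brighter row (16965015) and a dimmer row (16965035). The brighter USP17L9P row holds exactly the same value as the USP17L12 row on each of the 12 arrays, so the 4 rows are 3 distinct measurements. The genes were singled out because their signal was higher after entinostat than after vehicle, so that difference, and every other one that shares those arrays, is described here without a test. The difference between entinostat added to the MAPK inhibitors and the inhibitors alone uses none of those arrays and was tested. Its estimate of spread draws on all 12 arrays. The choice of genes was made with earlier results of these data known, and those may include the DT and DTE arrays. The test is therefore not shown to be free of that choice, and its p-values are not independent support.

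Cells were treated for 24 h in 4 groups of 3 arrays each. DMSO is vehicle. DT is 100 nM dabrafenib, an inhibitor of mutant BRAF, with 10 nM trametinib, an inhibitor of MEK, which together block the MAPK pathway. E is 1 µM entinostat, which blocks histone deacetylases of class I, and DTE is all 3 agents. The labels disagree on whether arrays within a group are biological or technical replicates, so p-values measure only the spread between these arrays, which may be technical.

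Deubiquitinases are proteases that remove ubiquitin from other proteins and so oppose ubiquitin ligases, which mark proteins for degradation or signalling. The USP17 enzymes, also known as DUB-3, are short cysteine proteases encoded by intronless genes, and cytokines induce some of them. Their genes form a megasatellite, a long tandem repeat whose units are almost the same and whose copy number varies between people. The RefSeq gene table (GRCh38.p14, used for names and gene order only) lists 29 USP17L genes, 23 on chromosome 4 and 6 on chromosome 8. In the chromosome 4 series of 23, USP17L12 is in place 3, USP17L15 in place 6 and USP17L9P, annotated as a transcribed pseudogene, in place 21. Only 4 of the 29 genes have a named row on the array, the other one being USP17L10 in place 1. Copies this alike can share probes, so each value below belongs to a probe set and its label, and which copies gave the signal was not tested.

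The labelled cell type was checked against melanocyte markers, of which 8 of 9 had a named row. SOX10, a neural crest transcription factor, ranged over the arrays from an intensity of 419 to 1081 and S100B, a calcium-binding protein of the lineage, from 853 to 2953. The range was 42.2 to 154 for PMEL, 30.6 to 79.8 for MITF, 29.0 to 134 for EDNRB, 13.3 to 20.9 for MLANA, 10.8 to 16.9 for TYR and 7.82 to 13.7 for TYRP1, and DCT had no named row. Of the markers of other tissues, EPCAM ranged from 32.8 to 80.0, KRT5 from 13.5 to 22.4, KRT14 from 31.4 to 63.1 and VWF from 20.8 to 38.3, and none of the 3 blood cell markers had a named row. Median intensity per array was 50.6 to 57.6 in DMSO, 48.3 to 51.6 in E, 37.5 to 40.8 in DT and 33.3 to 39.9 in DTE. Over all rows the median log2 difference was -0.15 for E minus DMSO, -0.18 for DTE minus DT, -0.39 for DT minus DMSO and -0.44 for DTE minus E. Quantile normalization of the same values brings these to between -0.04 and 0.01, and "quantile" below marks a difference after it. The files give no detection call, so a low intensity cannot be told from background.

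USP17L15 had a low, tight signal in vehicle. Its intensity was 9.48, 10.4 and 9.84 on the DMSO arrays and 121, 91.2 and 81.4 on the E arrays. All 3 E arrays lay far above all 3 DMSO arrays. On the log2 scale the mean went from 3.31 ± 0.07 to 6.59 ± 0.29 (SD, n = 3), a difference of 3.28 ± 0.21 (limma standard error), or 9.73-fold (quantile 3.14). With an offset of 16 added to each intensity the log2 difference was 2.12, so the size of the fold depends on how the low vehicle signal is treated. That signal is not shown to be above background.

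USP17L12, and with it the brighter USP17L9P row, started from a higher signal. Its intensity was 99.6, 68.4 and 73.0 on the DMSO arrays and 675, 592 and 489 on the E arrays. Again no E array came near a DMSO array. The log2 mean went from 6.31 ± 0.29 to 9.18 ± 0.23 (SD, n = 3), a difference of 2.87 ± 0.19, or 7.32-fold (quantile 2.99). Arrays did not overlap, in the direction of higher signal with E, for 11.6% of all rows. Since the genes were chosen on this contrast, that share is given only as context.

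The dimmer USP17L9P row stayed at a low signal. Its intensity was 6.44, 6.74 and 5.10 on the DMSO arrays and 14.0, 7.62 and 6.72 on the E arrays. The lowest E array lay within the DMSO range and 1 E array stood above the others. The log2 difference was 0.57 ± 0.22 (quantile 0.49), and without E replicate 1 it was 0.24. The same pseudogene label thus carries a row identical to USP17L12 and a row with a difference of 0.57.

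**Figure D1:**
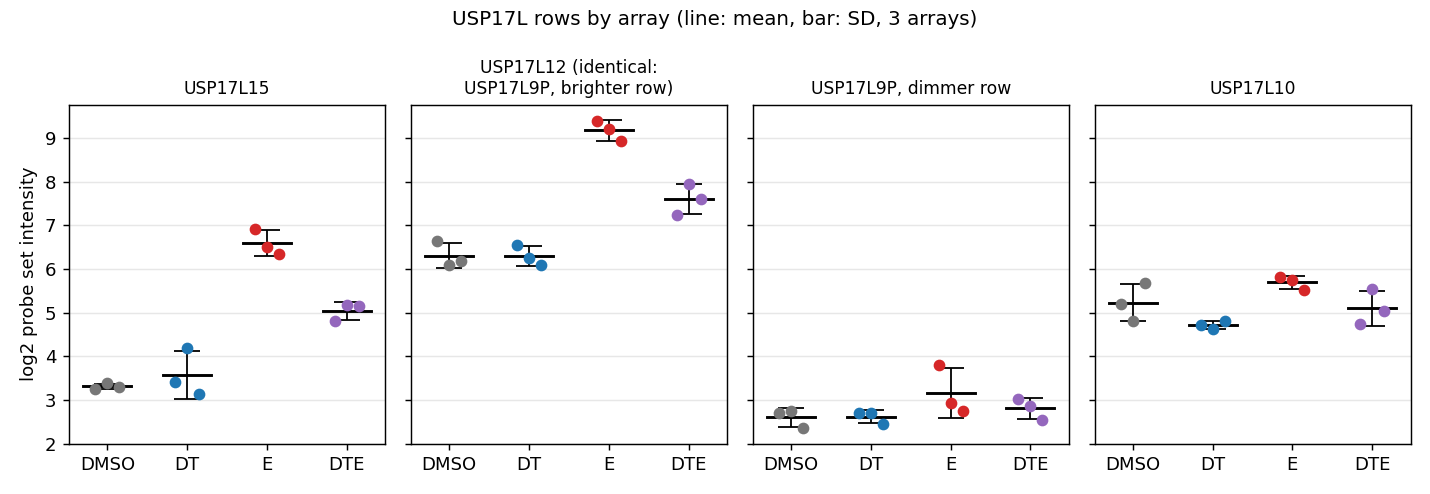
Log2 probe set intensity (y axis) of each USP17L row with a gene name on the 3 arrays of each group (x axis), with the mean as a horizontal line and the SD as a bar. In USP17L15 and USP17L12 the E arrays are highest, the DTE arrays lie between, and the DMSO and DT arrays overlap. In the dimmer USP17L9P row and USP17L10 the E arrays overlap the DMSO arrays, and the DTE arrays overlap the DT arrays.

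With the MAPK inhibitors alone USP17L15 and USP17L12 read near their vehicle level. USP17L12 read 93.8, 76.7 and 68.4 on the DT arrays, inside the DMSO range from 68.4 to 99.6. Its log2 difference DT minus DMSO was -0.01 ± 0.19, while the median over all rows was -0.39. After quantile normalization it was 0.51, so its direction depends on the scaling. USP17L15 read 10.7, 18.2 and 8.75, with 1 DT array below and 2 above every DMSO array. Its difference of 0.27 ± 0.21 (quantile 0.34) came down to -0.03 without DT replicate 2, the array at 18.2. The dimmer USP17L9P row read 6.47, 6.55 and 5.42 on the DT arrays, all within its DMSO range (0.02 ± 0.22, quantile -0.03).

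With entinostat added to the MAPK inhibitors, both rows rose over the inhibitors alone. USP17L15 read 28.0, 35.9 and 35.8 on the DTE arrays, against 8.75 to 18.2 with DT. All 3 DTE arrays were above all 3 DT arrays. The log2 mean went from 3.58 ± 0.55 to 5.05 ± 0.21 (SD, n = 3), a rise of 1.46 ± 0.21 or 2.76-fold (95% interval 2.02 to 3.78), with a limma adjusted p = 4.1e-05 over all rows (quantile 1.70, adjusted p = 1.1e-04). With the offset of 16 the rise was 0.80 (limma adjusted p = 2.1e-04).

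USP17L12 rose as well. It read 152, 247 and 196 on the DTE arrays, against 68.4 to 93.8 with DT. There was no overlap here either. The log2 mean went from 6.30 ± 0.23 to 7.60 ± 0.35 (SD, n = 3), a rise of 1.30 ± 0.19 or 2.47-fold (95% interval 1.87 to 3.25; limma adjusted p = 3.9e-05; quantile 1.81, adjusted p = 3.2e-06). The dimmer USP17L9P row read 8.04, 7.22 and 5.87 with DTE, which overlaps the DT arrays, and did not pass (0.19 ± 0.22, 95% interval -0.27 to 0.65, limma adjusted p = 0.54). So 2 of the 3 distinct measurements passed in the direction of higher signal, against 7.40% of all rows (16.3% after quantile normalization, where the same 2 passed). Arrays did not overlap in that direction for the same 2 measurements and for 9.23% of all rows. The 2 are not independent evidence, because their labels belong to 1 repeat family. As the genes were chosen with earlier results of these data known, these calls may not be free of that choice.

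The level with all 3 agents lay between vehicle and entinostat alone. Mean DTE intensity was 34.0% of mean E intensity for USP17L15 and 33.9% for USP17L12, and every DTE array was below every E array for both. The log2 difference DTE minus E was -1.55 ± 0.21 for USP17L15 (quantile -1.09) and -1.58 ± 0.19 for USP17L12 (quantile -0.66). Array medians were lower in DTE than in E, and the part of this shift in the result was not tested. DTE arrays did not overlap E arrays in the lower direction for 61.4% of all rows. Against vehicle, DTE was higher by 1.74 ± 0.21 in USP17L15 (quantile 2.04) and by 1.30 ± 0.19 in USP17L12 (quantile 2.32), with no overlap of arrays, as for 4.85% of rows in that direction.

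The order of levels was therefore the same in both rows. DMSO and DT overlapped and were lowest, DTE stood apart above them, and E stood apart above DTE. With entinostat USP17L15 was 9.73-fold higher in the absence and 2.76-fold higher in the presence of the MAPK inhibitors, and USP17L12 was 7.32-fold and 2.47-fold higher. For USP17L15 both folds are over levels not shown to be above background, and with the offset of 16 the log2 differences were 2.12 and 0.80. On the log2 scale the second difference minus the first was -1.82 in USP17L15 and -1.57 in USP17L12 (quantile -1.44 and -1.17). That contrast was not tested, since the genes were chosen for the first of its parts. The dimmer USP17L9P row had log2 means of 2.60 (DMSO), 2.61 (DT), 2.80 (DTE) and 3.16 (E), with SDs of 0.15 to 0.57. Its means rank in the same order, but its groups did not stand apart. Its E arrays overlapped the DMSO and DTE arrays, and its DTE arrays overlapped the DT arrays.

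**Figure D2:**
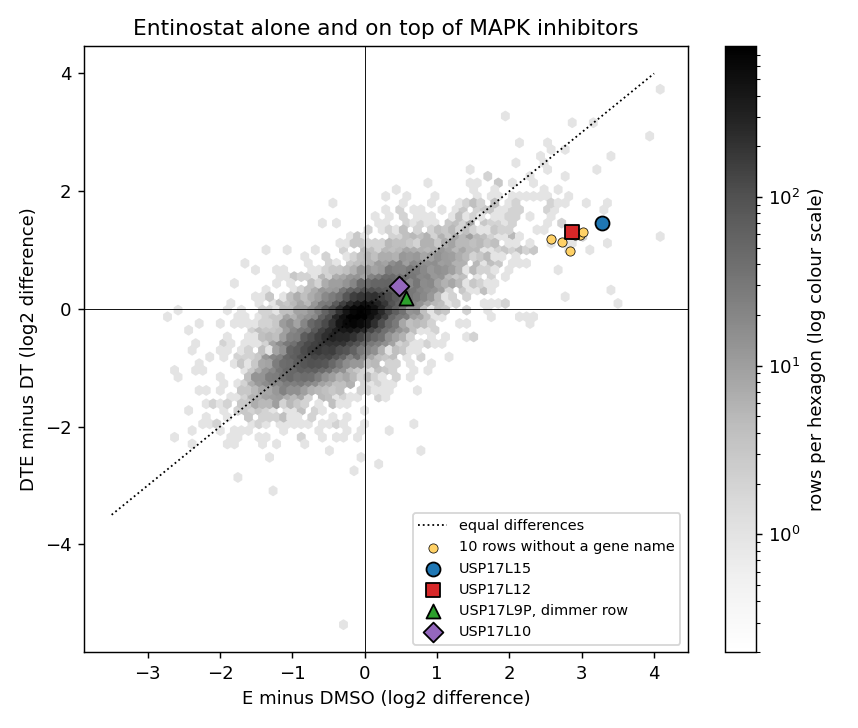
Log2 difference E minus DMSO (x axis) against DTE minus DT (y axis) for all 29592 rows, shown as hexagons shaded by row number on a log scale, with the USP17L rows and 10 rows without a gene name marked. USP17L15 (3.28 and 1.46) and USP17L12 (2.87 and 1.30) lie right of the dotted line of equal differences, and the dimmer USP17L9P row (0.57 and 0.19) and USP17L10 (0.48 and 0.39) lie near the bulk of rows.

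USP17L10, the first gene of the same repeat series (probe set 16964995), was not among the genes chosen and did not pass with entinostat. It read 36.5, 28.2 and 50.9 with DMSO and 56.5, 53.8 and 46.3 with E, so 1 E array fell inside the DMSO range. The difference was 0.48 ± 0.20 (limma adjusted p = 0.078, quantile 0.52 with adjusted p = 0.068), with a 95% interval of 0.05 to 0.90. It read 26.3, 24.7 and 28.1 with DT and 26.8, 46.5 and 32.6 with DTE, a difference of 0.39 ± 0.20 (limma adjusted p = 0.15, quantile 0.54 with adjusted p = 0.053). USP17L10 fell with DT against DMSO (-0.51 ± 0.20, limma adjusted p = 0.041), but not after quantile normalization (-0.15, adjusted p = 0.68). Similarity to USP17L12 over the 12 arrays was modest (r = 0.716), against r = 0.970 between USP17L15 and USP17L12. The dimmer USP17L9P row had r = 0.676 with USP17L12 and 0.688 with USP17L15. These r describe 12 arrays that include the contrast the genes were chosen for.

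Rows with no gene name followed USP17L12 more closely than any named gene outside the family did. Ranked by Pearson's r with USP17L12 over the 12 arrays, the first 11 rows outside those described above had no gene name, and the first named gene, PDGFD, came after them at r = 0.984. The first 10 of these rows, picked after their values were seen, had r of 0.988 to 0.999 with USP17L12 and of 0.970 to 0.980 with USP17L15. They held 9 distinct profiles, as 2 rows were identical. Their intensities spanned 54.2 to 118 on DMSO arrays, 64.3 to 109 on DT arrays, 338 to 779 on E arrays and 128 to 273 on DTE arrays. For each of the 10 rows every E array was above every DTE array, and every DTE array above every DT array. Differences ran from 2.58 to 3.02 for E minus DMSO, from 0.98 to 1.30 for DTE minus DT, from -0.15 to 0.38 for DT minus DMSO and from -1.69 to -1.49 for DTE minus E. On no array was any of them over 0.55 from USP17L12 on the log2 scale, and the row-wise median distance was 0.06 to 0.28. Their probe set numbers lie between 16965000 and 16965039, and those of the chosen USP17L rows fall within the same run. Whether these rows share probes with the USP17L rows was not tested. The annotation used here gives them no gene, so they are not assigned to a USP17L copy.

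**Figure D3:**
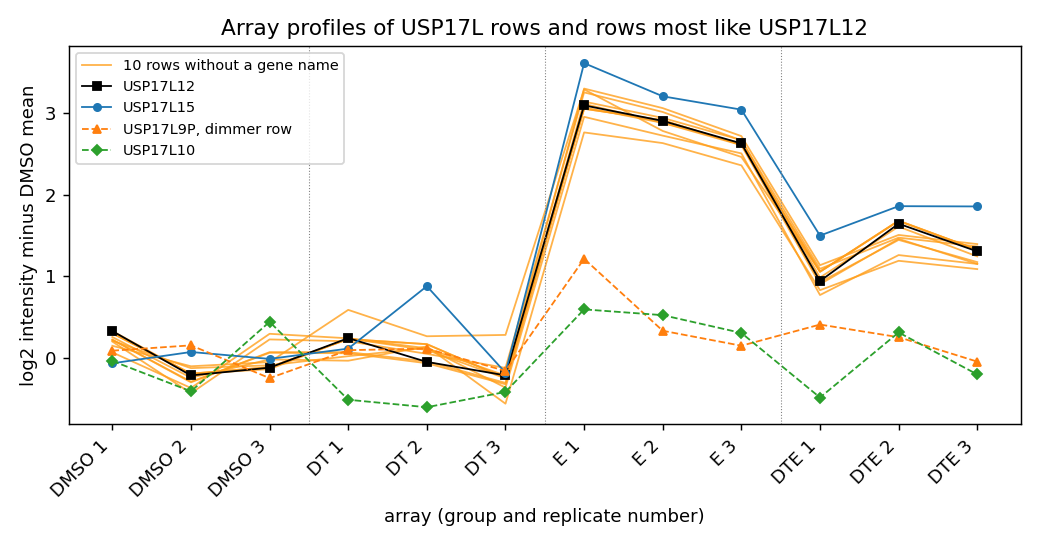
Log2 intensity minus the row's own DMSO mean (y axis) on each of the 12 arrays (x axis, replicate numbers have no order), with a line for each row. The 10 rows without a gene name run with USP17L12, and USP17L15 lies above them in E and DTE, with 1 high DT array. The dimmer USP17L9P row and USP17L10 follow less closely (r = 0.676 and 0.716 with USP17L12).

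Among named genes outside the family, those most like USP17L15 over the 12 arrays were CDS1, an enzyme of phosphatidylinositol synthesis (r = 0.984), ENPP4 (0.984), SAMHD1, which degrades deoxynucleotides (0.978), the aryl hydrocarbon receptor gene AHR (0.977) and JCAD (0.976). Those most like USP17L12 were the growth factor gene PDGFD (0.984), the receptor kinase gene MERTK (0.984), ZNF774 (0.984), ENPP2, which encodes autotaxin (0.981), and the netrin receptor gene UNC5D (0.981). They were taken from 4664 named genes with an SD of at least 0.5. Their differences were 1.12 to 2.13 for E minus DMSO, 0.46 to 1.18 for DTE minus DT and -1.15 to -0.47 for DTE minus E.

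The nearest measured genes on each side were taken from the RefSeq order. Before USP17L12 they were USP17L10, which is itself in the repeat, HMX1, a homeobox gene with 14 genes between, and CPZ, a carboxypeptidase gene with 17 between. After USP17L9P they were MIR548I2 with 16 genes between, DRD5, a dopamine receptor gene, with 26, and MIR3138 with 32, so none but USP17L10 is a close neighbour. For E minus DMSO the differences were -0.26 ± 0.12 in HMX1, -0.22 ± 0.13 in CPZ, 0.58 ± 0.23 in MIR548I2, 0.04 ± 0.13 in DRD5 and -0.23 ± 0.13 in MIR3138. None of the 6 passed in limma, 3 had an unadjusted p under 0.05 (USP17L10, HMX1 and MIR548I2), and after quantile normalization 0 passed and 1 had an unadjusted p under 0.05. For DTE minus DT 0 of 6 passed in limma, with 0 at an unadjusted p under 0.05, and 0 and 2 after quantile normalization. Differences there ran from -0.25 ± 0.13 in MIR3138 to 0.39 ± 0.20 in USP17L10.

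USP17 belongs to the wider enzyme class of ubiquitin specific proteases. Of 44 others measured, 4 rose and 22 fell with E against DMSO, where 8.76% of all rows rose and 28.3% fell. The list's median was -0.33, against -0.15 over all rows (quantile 10 higher and 14 lower, median -0.07 against -0.04, with 14.3% of all rows higher and 15.7% lower). The lists here and below hold 1 row per named gene, while all rows include 14809 without a gene name, so the 2 are not alike. Fitted with 1 row per named gene, 1513 of 14599 genes rose and 5424 fell with E against DMSO. For DTE against DT these counts were 1267 and 5933. USP44, a mitotic checkpoint deubiquitinase, rose from 4.62 ± 0.23 to 5.56 ± 0.21 (SD, n = 3), by 0.94 ± 0.15 (limma adjusted p = 1.1e-04, quantile 0.94). USP2 rose by 0.89 ± 0.13 (quantile 0.99) and USP25 by 0.56 ± 0.12 (quantile 0.94). USP5, which takes apart free ubiquitin chains, fell from 8.81 ± 0.07 to 7.29 ± 0.05, by 1.53 ± 0.10 (quantile -1.09). USP21 fell by 1.52 ± 0.11 (quantile -1.09) and USP13 by 1.16 ± 0.11 (quantile -0.74).

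With DTE against DT, 1 of the 44 rose and 28 fell, at a median of -0.59 against -0.18 over all rows, where 7.40% of rows rose and 31.6% fell (quantile 7 higher and 19 lower, median -0.21 against -0.03, with 16.3% of all rows higher and 18.5% lower). The gene that rose was USP25 (0.68 ± 0.12, limma adjusted p = 1.8e-04, quantile 1.15). USP44 (0.30 ± 0.15, adjusted p = 0.13) and USP2 (-0.18 ± 0.13, adjusted p = 0.29) did not pass. After quantile normalization USP44 passed (0.44, adjusted p = 0.029) and USP2 turned to 0.22 (adjusted p = 0.09). By contrast USP5 (-1.20 ± 0.10), USP21 (-1.32 ± 0.11) and USP13 (-0.74 ± 0.11) fell again.

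Deubiquitinases of the other enzyme families were counted in the same way. Of 22 measured, 3 rose and 12 fell with E, against 8.76% and 28.3% of all rows, at a median of -0.39 against -0.15. After quantile normalization 4 were higher and 6 lower, against 14.3% and 15.7% of all rows, at a median of -0.11 against -0.04. With DTE against DT 2 rose and 13 fell, against 7.40% and 31.6% of all rows, at a median of -0.48 against -0.18. After quantile normalization 4 were higher and 9 lower, against 16.3% and 18.5%, at a median of -0.19 against -0.03. ATXN3, the ataxin-3 gene, rose in both comparisons (0.81 ± 0.19 and 0.68 ± 0.19, limma adjusted p = 0.0025 and 0.0081), as did OTUD7A (0.43 ± 0.12 and 0.33 ± 0.12). UCHL3 rose with E (0.41 ± 0.11, limma adjusted p = 0.0078) and had a DTE minus DT difference of -0.29 ± 0.11 that did not pass (adjusted p = 0.051, quantile 0.16). ZUP1 (-1.16 ± 0.17 and -1.19 ± 0.17), COPS5, the protease subunit of the COP9 signalosome (-0.98 ± 0.13 and -1.06 ± 0.13), and OTUD4 (-0.95 ± 0.12 and -0.75 ± 0.12) fell in both.

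Proteins that USP17 enzymes have been reported to deubiquitinate were looked at on the transcript level. Of 8 measured of 12 listed genes, 3 rose and 5 fell with E, against 8.76% and 28.3% of all rows, at a median of -0.35 against -0.15. After quantile normalization it was 3 each way, against 14.3% and 15.7%, at a median of -0.02 against -0.04. With DTE against DT 3 rose and 2 fell, against 7.40% and 31.6%, at a median of -0.04 against -0.18. After quantile normalization 5 were higher and 1 lower, against 16.3% and 18.5%, at a median of 0.30 against -0.03. SNAI1, a transcription factor of epithelial to mesenchymal transition, rose by 0.70 ± 0.12 with E (quantile 1.08) and by 1.20 ± 0.12 with DTE against DT (quantile 1.65). RIGI, an RNA sensor, rose in both (0.63 ± 0.11 and 0.36 ± 0.11), and IFIH1, another, rose with E (0.31 ± 0.11) and did not pass with DTE against DT (0.11 ± 0.11) except after quantile normalization (0.34, adjusted p = 0.039). CDC25A, a cell cycle phosphatase, fell by 1.49 ± 0.16 with E (quantile -1.16) and did not pass with DTE against DT (-0.31 ± 0.16). CCNA2, which encodes cyclin A2, fell by 0.78 ± 0.11 with E and rose by 0.33 ± 0.11 with DTE against DT (limma adjusted p = 0.027, quantile 0.75). SUDS3, a subunit of the SIN3 histone deacetylase complex, fell in both (-0.74 ± 0.12 and -1.07 ± 0.12).

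HDAC2 is on that list and is also a target of entinostat, and the 4 class I histone deacetylase genes were all measured. HDAC2 fell by 0.39 ± 0.12 with E (limma adjusted p = 0.014) and by 0.43 ± 0.12 with DTE against DT (adjusted p = 0.0068), but passed in neither after quantile normalization (-0.07 and -0.10). HDAC8 did not pass with E (-0.28 ± 0.14, adjusted p = 0.14) and fell with DTE against DT (-0.67 ± 0.14, adjusted p = 0.0012, quantile -0.32). HDAC1 (0.00 ± 0.11 and -0.18 ± 0.11) and HDAC3 (-0.12 ± 0.11 and 0.08 ± 0.11) passed in neither on the deposited scale, and after quantile normalization both were higher in both (0.39 and 0.26 for HDAC1, 0.28 and 0.55 for HDAC3).

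USP17L genes are also known among the genes that the embryonic transcription factor DUX4 turns on, and a list of such early embryo genes was therefore counted. Of 20 measured of 30 listed, 4 rose and 0 fell with E in limma, against 8.76% and 28.3% of all rows, at a median of -0.07 against -0.15. After quantile normalization 3 were higher and 0 lower, against 14.3% and 15.7%, with the list and all rows both at a median of -0.04. With DTE against DT 4 rose and 1 fell, against 7.40% and 31.6%, at a median of 0.03 against -0.18. After quantile normalization 5 were higher and 1 lower, against 16.3% and 18.5%, at a median of 0.13 against -0.03. MBD3L2 rose from 5.14 ± 0.25 to 6.20 ± 0.15 (SD, n = 3) with E, by 1.06 ± 0.14 (limma adjusted p = 2.3e-05), and by 1.00 ± 0.14 with DTE against DT. MBD3L3 rose in both (0.54 ± 0.14 and 0.42 ± 0.14), and MBD3L5 rose with E (0.44 ± 0.14) and did not pass with DTE against DT (0.20 ± 0.14) except after quantile normalization (0.44, adjusted p = 0.0036). These 3 are close copies of each other, so their signals may not be separate. The other rises were in TRIM49 (0.69 ± 0.22 with E, limma adjusted p = 0.019, which did not pass after quantile normalization at adjusted p = 0.075, and 0.71 ± 0.22 with DTE against DT, adjusted p = 0.015) and, with DTE against DT, in DUXA (0.53 ± 0.13, adjusted p = 0.0029). TRIM49 had log2 means of 3.00 in DMSO and 3.69 in E, and the arrays of these groups overlapped, while those of DTE and DT did not. DUXA had 2.98 in DT and 3.52 in DTE. These low levels are not shown to be above background. LEUTX fell with DTE against DT (-0.40 ± 0.14, limma adjusted p = 0.026). DUX4 had no named row. TRIM49, DUXA and LEUTX are named here after their values were seen, to complete the counts.

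**Figure D4:**
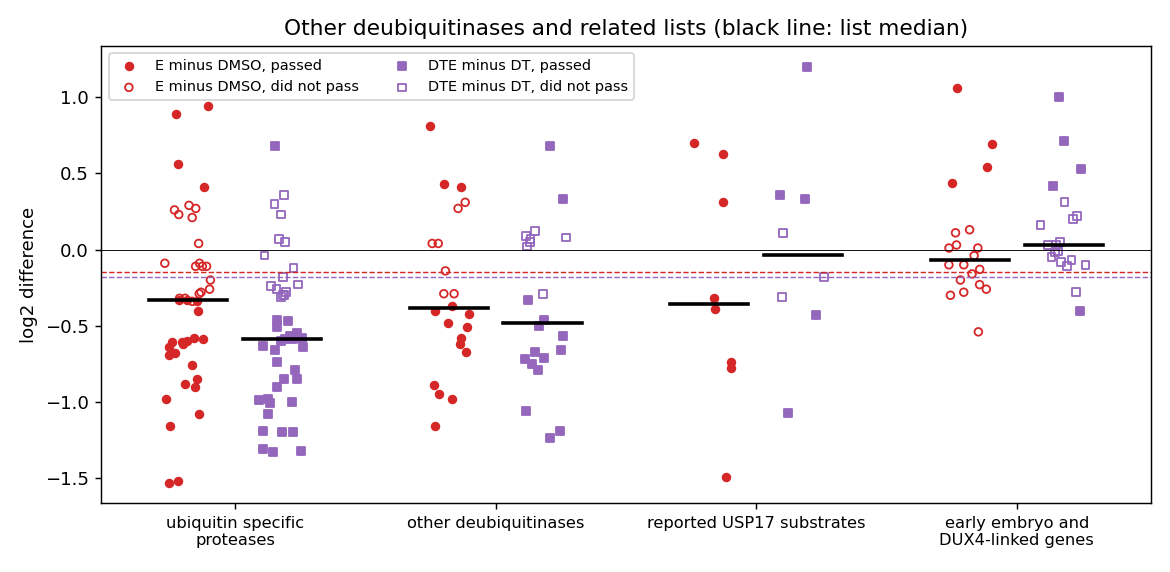
Log2 differences (y axis) of each measured gene of 4 lists (x axis) for E minus DMSO (circles) and DTE minus DT (squares), filled where the gene passed in limma, with list medians as black lines and the medians of all rows (-0.15 and -0.18) as dashed lines. The medians of both deubiquitinase lists (-0.33 and -0.59, -0.39 and -0.48) lie below the dashed lines.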

How the data were processed

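The authors made the deposited intensity values, 1 per probe set and array, with RMA in Transcriptome Analysis Console, per the submitters' processing notes. They are on a linear scale. The scaling between arrays, tool versions, genome build and array annotation were not given in the sources used here. A probe table named 14783 of the 29592 rows, all matched to RefSeq by gene ID. The log2 of each value was fitted with limma 3.58.1 in R 4.3.3 (group means, all 12 arrays, 8 residual and 7.58 prior degrees of freedom), and p-values were adjusted by Benjamini-Hochberg over all 29592 rows. A row passed, rose or fell at an adjusted p under 0.05. Having 3 arrays per group limits the precision. For list genes with several rows the brightest was taken. The members and gene lists were chosen with earlier results of these data known. Named are the members, other USP17L rows, up to 3 rises and 3 falls per list in E minus DMSO with no overlap of arrays, all class I histone deacetylases, 3 neighbours per side, and the 5 genes most like each of 2 members. The fit was tested on simulated data. There were 9 kinds of alternatives: quantile normalization, median subtraction, an offset of 16, a filter on dim rows, 1 row per gene, trend and robust variance, fewer arrays, the replicate number as a block, and leaving out each array. Plots used Python 3.11.15 and matplotlib 3.10.9.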

Additional observations from a re-analysis of the deposited data

Results flagged for a closer look

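The 10 rows without a gene name that followed USP17L12 had E minus DMSO differences of 2.58 to 3.02. Their probe set numbers form 1 run with those of the chosen USP17L rows, and whether they are a separate signal was not tested. In UCHL3 all E arrays were above all DMSO arrays (0.41) and all DTE arrays below all DT arrays (-0.29), but after quantile normalization the latter difference was 0.16, so the opposite directions do not hold on that scale. In CCNA2 all E arrays were below all DMSO arrays (-0.78) and all DTE arrays above all DT arrays (0.33), which kept their signs after quantile normalization (-0.47 and 0.75). The difference between the effects was not tested for either gene.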

How the results depend on the processing

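For DTE minus DT, USP17L15 and USP17L12 passed under every alternative that kept them and without each array in turn (1.24 to 1.77 and 1.13 to 1.48), and the dimmer USP17L9P row passed under none. All of these settings refit the same chosen rows, so they add no independent support. Fitted on the DT and DTE arrays only, the limma adjusted p was 2.3e-04 for USP17L15 and 1.1e-04 for USP17L12. Leaving out the dimmest 40% of rows removed USP17L15 and the dimmer USP17L9P row, and 1 row per gene removed the latter. After quantile normalization 4236 rows were higher and 4652 lower for E minus DMSO, against 2591 and 8380, and 4818 and 5479 for DTE minus DT, against 2189 and 9363. USP17L12 then had 0.51 for DT minus DMSO, 2.32 for DTE minus DMSO and -0.66 for DTE minus E, and USP17L15 -1.09 for DTE minus E. With array medians subtracted, 3446 rows were higher for DTE minus DT. DT minus DMSO was then 0.71 in USP17L15, 0.43 in USP17L12 and 0.46 in the dimmer row, DTE minus DMSO 2.30, 1.86 and 0.78, and DTE minus E -1.08, -1.11 and 0.11. These 2 settings start from the same values and change only the normalization between arrays. Median subtraction shifts each array by a constant, while quantile normalization makes the whole distribution of values the same on every array. With an offset of 16, USP17L15 had 2.12 (E minus DMSO), 0.92 (DTE minus DMSO) and -1.20 (DTE minus E), and the dimmer row 0.19 (E minus DMSO), while for DTE minus DT USP17L15 had 0.80, as an offset shrinks differences of dim rows. With 1 row per gene only 14599 rows were tested. Of these 1513 were higher and 5424 lower for E minus DMSO, and 1267 and 5933 for DTE minus DT. The labels do not say what else arrays with the same replicate number share. Their deviations from group means had r of -0.103 to 0.106 over 18 pairs (median 0.0234, against -0.00649 for pairs with different numbers). For 8 of 12 arrays the highest r was with an array of the same number, a hint from the data and not the design. With the number as a block, DTE minus DT was 1.46 in USP17L15 and 1.30 in USP17L12, and 2182 rows were higher and 9402 lower. The block changed no call of the 3 distinct measurements in that comparison, and its result for USP17L10 was not looked at.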

Other observations

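Identical rows were rare in the table. In all 50 of the 29592 rows matched another row on every array, in 23 sets, and 16 of these sets carried no gene symbol. Only 2 sets joined different gene symbols: USP17L12 with USP17L9P, and the mismatch repair pseudogenes PMS2P2 with PMS2P5. The row without a gene name that came 11th in similarity to USP17L12 (probe set 16947715, r = 0.986) lies outside the run of probe set numbers of the 10 before it. It had a smaller E minus DMSO difference than those 10, 1.95, and a DTE minus DT difference of 1.01.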
